A study of Homo sapiens with 10 samples.

Results

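The H/ACA box small nucleolar RNAs (SNORA genes) and the small Cajal body RNAs (SCARNA genes) were followed by RNA sequencing of bulk cultures of human embryonic stem cells. The members were all rows whose GENCODE symbol starts with SNORA or SCARNA and whose mean over the 10 libraries was at least 1 raw CPM (a count divided by the total of its library, times 1000000). Of 208 SNORA and SCARNA rows, 84 reached the limit, 73 SNORA and 11 SCARNA, out of 55841 rows in all, and 31 of the 208 had no count in any library. The members were thus chosen by their measured mean level, and the levels themselves are given as a description. Just inside the limit lay SNORA2A at 1.09, SNORA55 at 1.05 and SNORA58B at 1.05 raw CPM, and just outside it SNORA22C at 0.992, SNORA63D at 0.954 and SNORA66 at 0.798 raw CPM.

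The line is named HES9 in the labels and WA09 in the study's text, which is not resolved here, and it was grown in mTESR1 on matrigel. General libraries came from cells that were not sorted, and HHH libraries from the GCTM-2high CD9high EPCAMhigh fraction of the same line, so the general population holds HHH cells too. Batch 1 had 2 libraries of each population and batch 2 had 3 of each, and no label says whether replicates were separate cultures, so the p-values measure the spread between these libraries only. The design text also names a protein kinase C inhibitor, which no library's label carries.

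Libraries held 47242595 to 78503395 counts. The pluripotency genes POU5F1, NANOG, SOX2 and LIN28A were all measured well above the members' limit, at means of 543.0, 38.4, 216.7 and 1976 CPM after scaling. EPCAM, which was used in the sort, was 0.41 higher in HHH on the log2 scale (SE 0.08, adjusted p = 0.00645), and CD9, likewise used, had a difference of 0.29 (SE 0.12, adjusted p = 0.20). Over these 6 stem cell genes the log2 fold changes ran from -0.26 to 0.44, so the list did not move in 1 direction. At an adjusted p under 0.05 there were 3 of the 6, and 0 also passed 1.5-fold. The summed level of 5 neural progenitor genes was 4.56 to 12.9 CPM in general libraries and 0.986 to 1.49 CPM in HHH libraries. Of the 4 that were tested, LHX5, SOX1 and ZIC1 fell in HHH, and the log2 fold changes of the 4 ran from -5.57 to -0.15. Within batch 1 alone 1 of them passed, and within batch 2 there were 3. Of 7 mesendoderm genes 1 was tested and did not pass, but FOXA2 stood at 1.37 to 1.67 CPM in HHH and 0.107 to 0.906 CPM in general libraries of batch 1, and at most at 0.206 CPM in batch 2. The 3 trophectoderm or amnion genes summed to at most 0.215 CPM. The part of such cells in the members' values was not tested, and in bulk RNA fewer cells of a type and less RNA per cell cannot be told apart.

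H/ACA RNAs fold into hairpins whose internal loops pair with a target RNA and direct its pseudouridylation, and most guide the modification of ribosomal RNA in the nucleolus. Each is bound by dyskerin (DKC1), which is the pseudouridine synthase, with NHP2, NOP10 and GAR1. The small Cajal body RNAs guide the same kind of modification, or 2′-O-methylation by the C/D box machinery, on spliceosomal small nuclear RNAs in the Cajal body. In vertebrates most members of both classes are cut from introns of host genes that encode ribosomal proteins, translation factors or noncoding RNAs.

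Sequences are shown for the members on which the comparisons turn: SNORA1 and SCARNA5, which passed a test between populations, SNORA73B, the most abundant member, and SNORA53, with a high batch difference. They are GENCODE transcripts (5′ to 3′, T for U). Capitals in SNORA sequences mark the ANANNA match nearest the midpoint (the form of an H box) and the terminal ACA. In SCARNA sequences they mark TGATGA (a C box form) and the last CTGA (a D box form).
SNORA1: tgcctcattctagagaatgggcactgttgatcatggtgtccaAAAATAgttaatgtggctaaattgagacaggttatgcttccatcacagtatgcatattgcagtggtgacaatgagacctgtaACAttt
SCARNA5: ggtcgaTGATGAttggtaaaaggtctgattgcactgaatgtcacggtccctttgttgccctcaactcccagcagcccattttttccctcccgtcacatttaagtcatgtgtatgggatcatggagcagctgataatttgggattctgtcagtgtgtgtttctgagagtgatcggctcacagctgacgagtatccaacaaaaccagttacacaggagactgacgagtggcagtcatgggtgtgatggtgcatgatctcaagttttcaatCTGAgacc
SNORA73B: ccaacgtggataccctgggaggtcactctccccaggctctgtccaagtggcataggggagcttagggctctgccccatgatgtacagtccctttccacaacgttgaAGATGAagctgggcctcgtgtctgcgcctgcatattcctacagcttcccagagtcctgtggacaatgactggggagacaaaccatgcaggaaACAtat
SNORA53: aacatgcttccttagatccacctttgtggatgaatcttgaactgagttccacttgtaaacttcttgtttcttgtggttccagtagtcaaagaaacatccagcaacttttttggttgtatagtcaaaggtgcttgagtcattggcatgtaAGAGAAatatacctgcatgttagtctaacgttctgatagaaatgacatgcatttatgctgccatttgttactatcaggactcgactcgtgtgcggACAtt

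In GRCh38 coordinates of the annotation SNORA1 lies at chr11:93732004-93732133 (minus strand, wholly within exons of TAF1D) and SCARNA5 at chr2:233275727-233276002 (plus strand, in an intron of ATG16L1). SNORA73B lies at chr1:28508559-28508762 (plus strand, in an intron of SNHG3, the more abundant of 2 candidate hosts). SNORA53 lies at chr12:98599635-98599883 (plus strand, in SLC25A3, with 10.4% of its bases in exons). Here intron means that no exon of any transcript of the host covers the member. The submitters' notes name GRCh37, and the count table holds no coordinates.

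An ACA ending 2 to 5 bases before the 3′ end was found in 62 of 73 SNORA members (84.9%) and 4 of 11 SCARNA members (36.4%), against 13 of 273 C/D box SNORD transcripts (4.76%). TGATGA was found in 6 of 11 SCARNA members, 2 of 73 SNORA members and 204 of 273 SNORD transcripts (74.7%). All searches were on the transcribed strand. The Cajal body box form TGAG was found in 10 of 11 SCARNA members and 28 of 73 SNORA members, but also in 84.2% of SNORD transcripts. ANANNA was found in 72 of 73 SNORA members and likewise in 84.2% of SNORD transcripts, so a match alone does not identify an H box. SNORA members were 121 to 272 bases long (median 134) and SCARNA members 125 to 353 (median 270). By edit distance 19 members were at least 90% identical to another SNORA or SCARNA row, and the assignment of their counts is uncertain. The closest were SNORA7A and SNORA7B, at 98.6%. SNORA1 was 94.7% identical to SNORA1B, whose mean was 0.0229 raw CPM. SCARNA5, by contrast, was no more than 62.7% identical to any other row.

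A minority of members held most of the counts. SNORA73B, of a family known for a part in processing the precursor of small-subunit ribosomal RNA, made up 33.0% of the summed mean of all members, and the 10 most abundant made up 72.2%. The median member had a mean of 5.60 raw CPM, and 55 of 84 were under 10. Per length, on TMM-scaled CPM per kb, SNORA73B stood at 4124, followed by SNORA74A at 972, SNORA63 at 926, SCARNA10 at 546, SNORA48 at 490 and SCARNA12 at 451. SNORA1 stood at 9.48 CPM per kb, 77th of the 84. All CPM values from here on use the TMM-scaled library size.

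The share of all counts that fell on the 84 members separated the batches completely. It was 0.458% and 0.373% in the general and 0.536% and 0.317% in the HHH libraries of batch 1. In batch 2 it was 0.0976%, 0.131% and 0.0955% in general and 0.106%, 0.115% and 0.126% in HHH libraries. The populations overlapped in both batches. In batch 1 the HHH libraries held both the highest and the lowest share, and their mean was 0.427% ± 0.155 (SD, n = 2) against 0.415% ± 0.0599 (SD, n = 2) in general. In batch 2 the means were 0.116% ± 0.010 (SD, n = 3) and 0.108% ± 0.0199 (SD, n = 3).

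**Figure D1:**
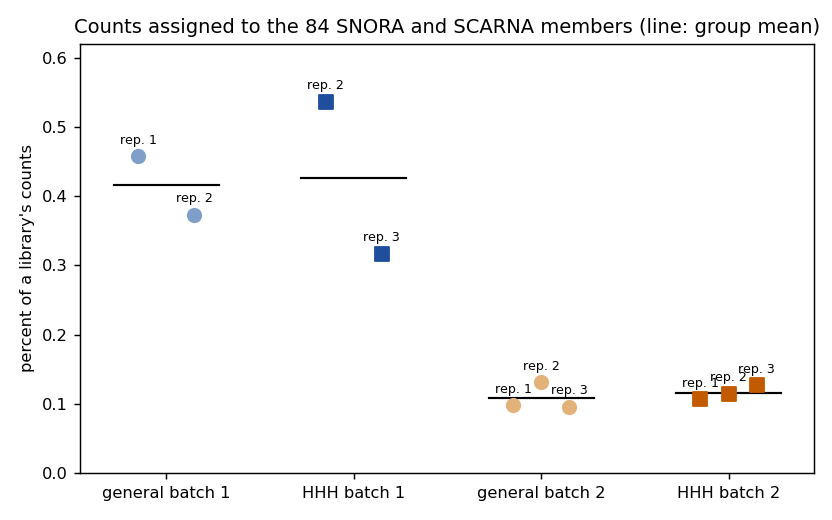
Percent of each library's counts (y axis) that was assigned to the 84 SNORA and SCARNA members, with 1 point per library and a line at the mean of each of the 4 groups. Batch 1 libraries lie between 0.317% and 0.536% and batch 2 libraries between 0.0955% and 0.131%, with both populations overlapping in each batch.

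The comparison of HHH with general asked whether the guide RNAs differ in the self-renewing fraction. Of 84 members, 83 passed the filter on low counts. The exception was SNORA79, with 119 to 284 counts per library in batch 1 and 0 to 9 in batch 2. With batch as a term, 1 of the 83 rose in HHH (adjusted p under 0.05 and over 1.5-fold) and 0 fell, where 0.637% of all tested genes rose and 2.34% fell, 2.98% in all. At the adjusted p alone it was still 1 member, against 5.83% of all tested genes. At an unadjusted p under 0.05 there were 10 members. Counts at an unadjusted p are given here and below without the share of all tested genes. They therefore cannot show whether there was an excess or none. DESeq2 and limma with voom each called SNORA1 alone of the members, where they called 768 and 705 of 23552 tested genes in either direction. The log2 fold changes of the members ran from -0.15 to 0.82 with a median of 0.21, and 71 were above 0. Over all 23552 genes the median was 0.02 and 53.0% were above 0. The median was 0.23 over 72 SNORA and 0.08 over 11 SCARNA members. The shift was not particular to them. Over 71 SNORD genes with a mean of at least 1 raw CPM the median was 0.23, with 61 above 0, 5 that rose and 0 that fell. Over 46 such genes of spliceosomal small nuclear RNAs (RNU and RNVU) it was 0.57, with 43 above 0, 5 that rose and 0 that fell.

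SNORA1, an H/ACA RNA of the ribosomal RNA guide class, was the member that rose. Its level was 1.66 and 1.51 CPM in general and 4.03 and 2.31 CPM in HHH libraries of batch 1. In batch 2 it was 0.434, 0.298 and 0.383 CPM in general and 0.739, 0.501 and 0.460 CPM in HHH libraries. Every HHH library was thus above every general library of its batch, which held for 2 of 83 members (SNORA1 and SNORA33) and 3.93% of all tested genes. No member had every HHH library below every general library of both batches, against 5.42% of all tested genes. The log2 fold change was 0.82 (SE 0.21, adjusted p = 0.033), with 1.00 in batch 1 (SE 0.28, adjusted p = 0.080) and 0.60 in batch 2 (SE 0.30, adjusted p = 0.21). These values rest on 90 to 188 counts per library in batch 1 and 17 to 43 in batch 2. The call was lost when any of 6 of the 10 libraries was left out: either general library of batch 1, HHH replicate 2 of batch 1, HHH replicate 1 of batch 2, or general replicate 2 or 3 of batch 2. The log2 fold change then ran from 0.58 to 0.94 and the adjusted p from 0.013 to 0.12 over all 10 omissions, and it was lowest without HHH replicate 2 of batch 1.

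TAF1D, a subunit of the RNA polymerase I selectivity factor and the host of SNORA1, had a log2 fold change of 0.22 and did not pass (SE 0.11, adjusted p = 0.25). The SNORA1 locus is wholly covered by TAF1D exons. TAF1D stood at a mean of 139.4 CPM, and whether fragments of the host were counted for the member was not tested. The other members in TAF1D were SNORA8 (log2 fold change 0.14), SNORA18 (0.38), SNORA40 (0.35), SNORA32 (0.35) and SNORA25 (0.30), and none passed the test.

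The next members by fold change did not pass. SNORA72 (the row ENSG00000207067, in the ribosomal protein gene RPL30) was at 0.66 (SE 0.24, adjusted p = 0.13). It stood at 3.00 and 2.73 CPM in general and 5.23 and 2.43 CPM in HHH libraries of batch 1, which overlapped. In batch 2 it stood at 0.208, 0.421 and 0.250 CPM in general and 0.532, 0.588 and 0.619 CPM in HHH libraries, which did not. SNORA80B, in the ornithine decarboxylase gene ODC1, had 0.56 (SE 0.22, adjusted p = 0.16). The most negative were SNORA5A at -0.15 (SE 0.16), SNORA2B at -0.14 (SE 0.17) and SNORA5C at -0.14 (SE 0.18), with adjusted p values of 0.62, 0.68 and 0.71.

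In batch 2 the deviations of same-numbered libraries correlated at 0.12 to 0.23, and batch 1 cannot show such pairing. The fit with the replicate number as a block gave 7 members higher in HHH and 0 lower, where 0.866% of all tested genes rose. They were SNORA1 (log2 fold change 0.92), SNORA72 (0.97), SNORA75 (0.81), SNORA27 (0.65), SNORA18 (0.62), SNORA65 (0.60) and SCARNA5 (0.59), with adjusted p values from 0.015 to 0.033. The median member stood at 0.39 in that fit. In batch 1 only replicate 2 occurs in both populations, so the block leaves general replicate 1 and HHH replicate 3 without weight. HHH replicate 2, which keeps its weight, had a median of 0.61 over the members against the general mean of its batch. HHH replicate 3 had -0.32.

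**Figure D2:**
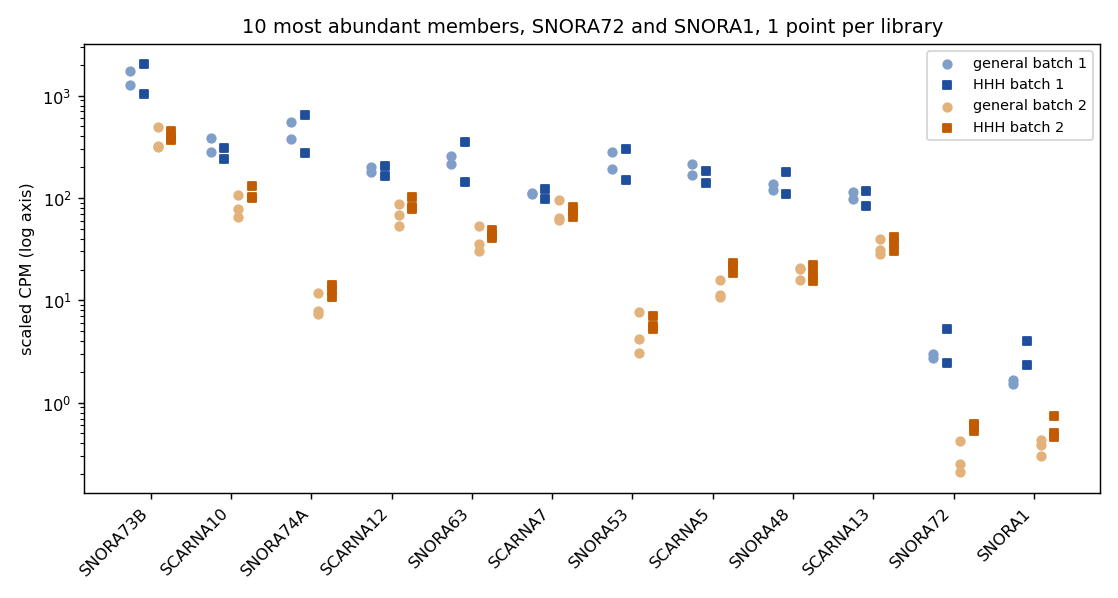
TMM-scaled CPM (y axis, log scale) of the 10 most abundant members, SNORA72 and SNORA1 (x axis), with 1 point per library, circles for general and squares for HHH. Batch 1 libraries lie above batch 2 libraries for every gene shown, and HHH and general overlap in batch 1 for all but SNORA1.

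None of the 10 most abundant members passed the test over both batches, although SCARNA5, which is among them, passed within batch 2 and with the replicate block. SNORA73B stood at 1755 and 1265 CPM in general and 2020 and 1029 CPM in HHH libraries of batch 1. In batch 2 it stood at 320.1, 496.5 and 316.8 CPM in general and 369.4, 387.8 and 452.9 CPM in HHH libraries. HHH libraries lay on either side of the general ones in batch 1 and between them in batch 2. Its log2 fold change was 0.06 (SE 0.17, adjusted p = 0.87), with an interval of 2 SE from -0.28 to 0.41. SNORA74A had 0.27 (SE 0.21), SCARNA12 0.19 (SE 0.13), SNORA63 0.13 (SE 0.20), SCARNA10 0.13 (SE 0.16), SNORA53 0.10 (SE 0.23), SCARNA13 0.05 (SE 0.12), SNORA48 0.05 (SE 0.14), SCARNA7 -0.00 (SE 0.12) and SCARNA5 0.33 (SE 0.18). For 42 of 83 members the interval of 2 SE lay wholly within 1.5-fold in either direction, and for 1 it reached a fall of 1.5-fold.

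The median shift of the members came with a spread between libraries of the same group. Each library's log2 levels (with 0.02 CPM added) were set against the mean of the general libraries of its batch. HHH replicate 2 of batch 1 had a median of 0.61 over the members, with 78 of 83 above the general mean, and HHH replicate 3 of the same batch had -0.32, with 6 of 83 above it. The HHH libraries of batch 2 had medians of 0.07, 0.20 and 0.26. General replicate 2 of batch 2 had 0.27. The C/D box SNORD genes were likewise high in HHH replicate 2 of batch 1, with a median of 0.72, but not low in HHH replicate 3, with 0.09. The hosts of the members had 0.06 and -0.07 in these libraries.

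**Figure D3:**
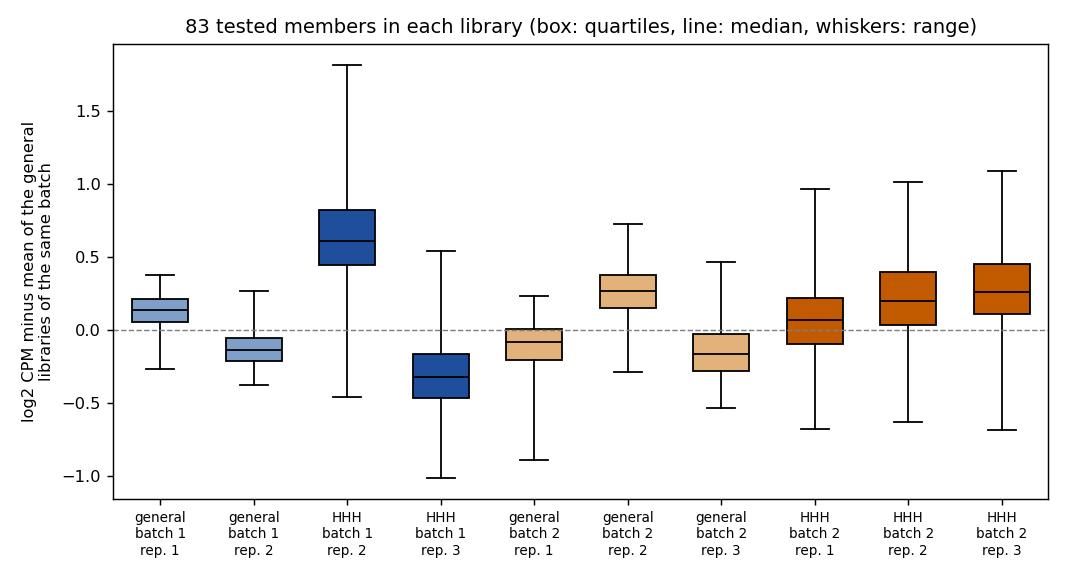
Log2 CPM of the 83 tested members minus their mean in the general libraries of the same batch (y axis), for each of the 10 libraries. Boxes show quartiles, lines medians and whiskers the range. The HHH libraries of batch 1 lie on opposite sides of 0, with medians of 0.61 and -0.32.

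Within batch 1 none of the 83 members passed the test, where 1.79% of all tested genes did (0.904% higher and 0.887% lower). At an unadjusted p under 0.05 there were 7, and DESeq2 called 1 (SNORA33), where it called 592 of 23552 tested genes. The median log2 fold change was 0.22 with 65 members above 0. Without HHH replicate 2 it was -0.32 with 6 above 0 and 0 called. Without HHH replicate 3 it was 0.61 with 78 above 0 and 20 called, all higher in HHH, where 636 of 23980 tested genes were called in either direction. The same omissions took the median over both batches to -0.03 (0 members and 600 of 23888 tested genes called) and 0.37 (6 members and 963 of 23980 tested genes called). SNORA55 had the largest fold change of the batch, at 1.22 (SE 0.40, adjusted p = 0.13). Its HHH libraries held 4.93 and 1.53 CPM and its general libraries 1.33 and 1.44 CPM, so that HHH replicate 2 stood apart from the other 3 libraries.

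Within batch 2 the mixed C/D and H/ACA guide SCARNA5 rose in HHH, as 1 of 83 members, where 0.777% of all tested genes rose and 3.1% fell, 3.88% in all. It stood at 11.4, 15.7 and 10.8 CPM in general and 18.5, 21.8 and 23.2 CPM in HHH libraries, without overlap. Such separation, HHH above general, held for 11 of 83 members in this batch against 18.1% of all tested genes, and in batch 1 for 4 against 22.5%. The reverse held for 0 members in batch 2 against 18.2%, and in batch 1 for 1 (SCARNA21) against 21.0%. The log2 fold change of SCARNA5 was 0.74 (SE 0.16, adjusted p = 0.0091). In batch 1 it stood at 215.8 and 167.5 CPM in general and 185.1 and 139.5 CPM in HHH libraries, which overlapped, with -0.24 (SE 0.18, adjusted p = 0.54). The difference of the 2 changes was 0.98 (SE 0.24, adjusted p = 0.075) and did not pass. It did pass without HHH replicate 2 of batch 1 (1.2, adjusted p = 0.039) or general replicate 2 of batch 2 (1.17, adjusted p = 0.044). Over both batches SCARNA5 had 0.33 (SE 0.18, adjusted p = 0.30). The call within batch 2 was lost without HHH replicate 3 or without general replicate 3, which left 0 members called. Without general replicate 2 there were 3 (SCARNA5, SCARNA6 and SCARNA10), where 880 of 23919 tested genes were called. Without either HHH library of batch 1 there were 2 (SCARNA5 and SNORA72). There 1048 of 23888 genes were called without replicate 2 and 1056 of 23980 without replicate 3. With batch 2 fitted alone, with or without the replicate block, SCARNA5 and SNORA72 passed.

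SCARNA5 and SCARNA6 share the host ATG16L1, which encodes an autophagy protein. In batch 2 SCARNA6 had a log2 fold change of 0.51 and ATG16L1 -0.12 (SE 0.08, adjusted p = 0.39). In batch 1 they had -0.12 and -0.17.

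No member's change differed between batches at an adjusted p under 0.05, where 0.777% of all tested genes did (0.0552% with the higher change in batch 2 and 0.722% with the lower). The smallest adjusted p was 0.075, for SCARNA5. At an unadjusted p under 0.05 there were 4, and DESeq2 called 1 (SCARNA5), where it called 838 of 23552 tested genes. Without HHH replicate 3 of batch 1 the difference for SNORA55 (batch 2 minus batch 1) passed, at -2.07 (adjusted p = 0.044). Of the 83 members 45 were higher in HHH in both batches, 3 lower in both, 20 higher in batch 1 alone and 15 higher in batch 2 alone. Of all tested genes 26.7% were higher in both. Across the 83 members the log2 fold changes of the batches had a Pearson r of -0.05 and a Spearman rho of -0.03. Over all tested genes the values were 0.28 and 0.14, and both are descriptions over genes that share libraries. Of 11 SCARNA members 3 were above 0 in batch 1 and 9 in batch 2, and of 72 SNORA members 62 and 51 were.

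**Figure D4:**
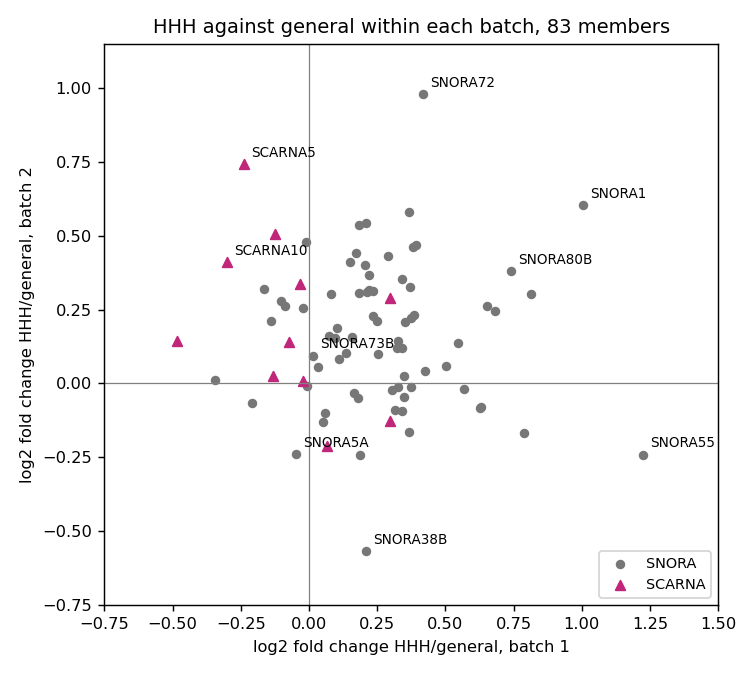
Log2 fold change of HHH over general in batch 1 (x axis) and batch 2 (y axis) for 72 SNORA (circles) and 11 SCARNA (triangles) members. Most SNORA members lie to the right of 0 and most SCARNA members to its left, and SCARNA5 lies at -0.24 and 0.74.

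The members differed far more between batches than between populations. Of 83 members 80 were higher in batch 1, over both populations, and 0 lower, where 8.92% of all tested genes were higher and 12.5% lower, 21.5% in all. At the adjusted p alone 81 members passed, against 47.9% of all tested genes. The log2 difference ran from 0.10 to 5.46 with a median of 2.30, against -0.00 over all tested genes. In 82 of the 84 members every batch 1 library was above every batch 2 library, which held for 14.5% of all tested genes. The limit of 1 raw CPM is a mean over all libraries and so favours genes that are high in any of them. Of the 64 members that also averaged at least 1 raw CPM in batch 2 alone, 61 were higher in batch 1, with a median of 2.16. Among the 28 tested SNORA and SCARNA rows under the limit, 21 were higher in batch 1 and 0 lower, with a median of 1.8.

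SNORA74A showed the largest difference. It stood at 558.7, 374.5, 653.7 and 272.1 CPM in the libraries of batch 1 and at 7.33 to 14.2 CPM in those of batch 2, which is a 43.9-fold difference (log2 5.46, SE 0.24, adjusted p = 1.1e-09). SNORA53, in the phosphate carrier gene SLC25A3, stood at 150.3 to 299.5 CPM in batch 1 and at 3.07 to 7.65 CPM in batch 2, a 42.5-fold difference (log2 5.41, SE 0.24). SNORA81 had a log2 difference of 4.64, SNORA74B 4.53 and SNORA23 4.50. Among the abundant members the log2 difference was 3.44 for SCARNA5, 2.87 for SNORA48, 2.54 for SNORA63, 1.96 for SNORA73B, 1.66 for SCARNA10, 1.57 for SCARNA13 and 1.26 for SCARNA12.

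The smallest differences were those of SCARNA17, SCARNA9 and SNORA21B, followed by SCARNA7. SCARNA17 stood at 9.31 to 12.4 CPM in batch 1 and at 9.10 to 13.3 CPM in batch 2, with a log2 difference of 0.10 (SE 0.12, adjusted p = 0.49). SCARNA9 had 0.25 (SE 0.13, adjusted p = 0.12), SNORA21B 0.42 (SE 0.11, adjusted p = 0.0057) and SCARNA7 0.59 (SE 0.12, adjusted p = 0.0010). SCARNA7, SCARNA9 and SCARNA17 are known as C/D type guides without an H/ACA domain. The sequences of all 3 had no ACA near the 3′ end, and those of SCARNA7 and SCARNA9 held TGATGA. The median difference was 1.26 over the SCARNA and 2.44 over the SNORA members. It was 2.34 over 72 members under 200 bases, from 0.10 to 5.46, and 1.96 over 11 longer members, from 0.25 to 5.41.

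Other short nuclear RNA classes also stood higher in batch 1. Of 71 SNORD genes with a mean of at least 1 raw CPM 59 were higher, with a median log2 difference of 1.06. Of 46 such RNU and RNVU genes (spliceosomal small nuclear RNAs) 43 were, with a median of 3.50. Among all tested genes 8.92% were higher. What the batches were is not given in the labels beyond their number, and the cause of the difference was not tested.

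Hosts were sought only among annotated genes whose ID was in the count table. They were genes of at least 500 bases on the same strand whose body holds the whole member, and the most abundant where several did. There were 60 of them for 80 members, and 4 members (SNORA74A, SNORA74D, SNORA7B and SNORA11F) had none among these genes. Whether those 4 lie in a gene that the count table lacks was not examined. TAF1D held 6 members, EIF4A2 and SNHG17 4 each and KANSL2 3. Of the 80 members 38 had no base in a host exon, 38 lay wholly in host exons and 4 in part. The exons of all annotated transcripts of a host were merged, so these 38 need not lie in exons of its main transcript. How fragments over such exons were divided is not known, so those members are not independent of the host. Even so, 3 members wholly within exons (SCARNA13 in SNHG10, SNORA57 in CSKMT and SCARNA17 in SNHG22) had a higher mean CPM than the host.

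Between batches the members stood apart from their hosts. The median host difference was 0.29, and 13 of 60 hosts were higher and 3 lower in batch 1. Of all tested genes 8.92% were higher and 12.5% lower. At the adjusted p alone 46 hosts passed, against 47.9% of all tested genes. In all 79 pairs in which both genes were tested, the member's log2 difference was above that of its host. Across the pairs Pearson's r was 0.13 and Spearman's rho 0.04, a description over pairs that share libraries and, in part, hosts. SNHG3, the noncoding host of SNORA73B, had the largest host difference, 1.67 (SE 0.15, adjusted p = 9.5e-07), beside 1.96 for the member. SLC25A3 had 0.41 beside 5.41 for SNORA53, and ATG16L1 0.09 beside 3.44 for SCARNA5. The median difference was 2.24 over 37 members without a base in host exons and 2.19 over 38 wholly within them.

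**Figure D5:**
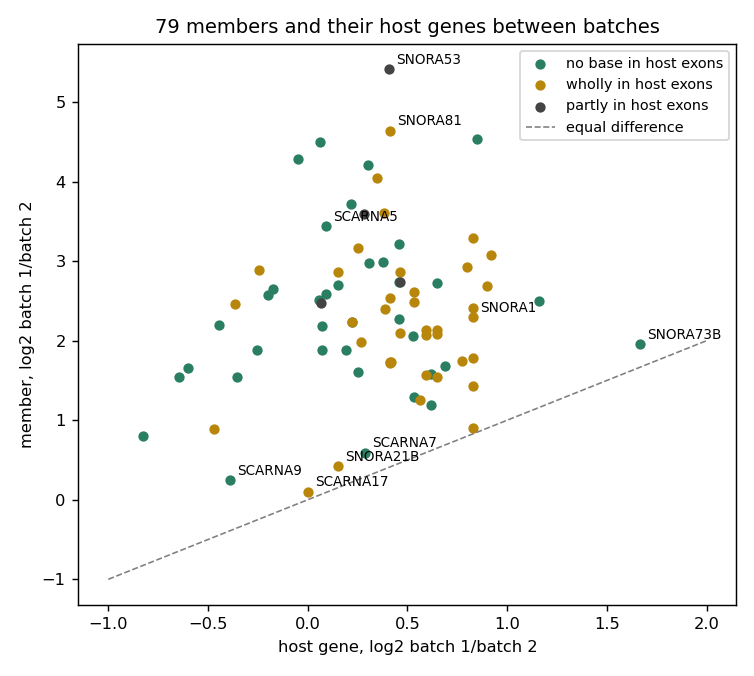
Log2 difference between batch 1 and batch 2 of each host (x axis) and its member (y axis) for 79 pairs, coloured by the share of the member in host exons, with a dashed line where both would be equal. All points lie above the line, with SNORA53 at 5.41 against 0.41 for its host SLC25A3.

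Between populations the hosts differed less than between batches. The log2 fold changes of the 60 hosts ran from -0.46 to 0.47 with a median of 0.07, and none passed both thresholds in edgeR, DESeq2 or limma with voom. At an unadjusted p under 0.05 there were 7. ODC1, the rate-limiting enzyme of polyamine synthesis, was 0.47 higher in HHH (SE 0.09, adjusted p = 0.0071), and SNHG17, which holds 4 SNORA71 members, 0.31 higher (SE 0.07, adjusted p = 0.018), both under 1.5-fold. The SNORA71 members in SNHG17 had 0.23 (SNORA71A), 0.37 (SNORA71C), -0.01 (SNORA71D) and 0.24 (SNORA71B), none past the test. In batch 2 alone 1 host passed, the chromatin remodeller CHD3, which fell by 0.61 on the log2 scale (adjusted p = 0.046), while its member SCARNA21 had 0.15 (SE 0.20). The member had the same sign as the host in 59 of 79 pairs over both batches, and was above the host in 61. Pearson's r was 0.39 and Spearman's rho 0.36. Within batch 1 the rho was 0.33 and within batch 2 it was 0.15. As 71 of 83 members and the median host were above 0, many pairs share a sign in any case. These values are descriptions over pairs that share libraries, in part hosts, and possibly fragments where the member lies in host exons.

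The genes for the proteins that bind, assemble and process these RNAs did not pass the test between populations. The lists also held TERT, the 4 C/D core genes and 11 pseudouridine synthases that act without a guide. Of 40 tested in 7 lists, none rose or fell over both batches or in either batch, and 32 were above 0 over both batches, with a median of 0.09, where 53.0% of all tested genes were above 0. In batch 1 there were 20 above 0, with a median of -0.00, and in batch 2 there were 32, with a median of 0.14. DESeq2 and limma with voom also called 0 over both batches, and 7 had an unadjusted p under 0.05 in edgeR. The smallest adjusted p over both batches was 0.11, for NHP2. In the core particle DKC1 had a value of 0.12 on the log2 scale (SE 0.08, adjusted p = 0.40), NHP2 0.26 (SE 0.09, adjusted p = 0.11), NOP10 0.20 (SE 0.10, adjusted p = 0.28) and GAR1 0.23 (SE 0.10, adjusted p = 0.22). In batch 2 NHP2 was 0.36 higher (SE 0.10, adjusted p = 0.039), under 1.5-fold.

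The assembly factors NAF1, SHQ1, RUVBL1, RUVBL2 and NUFIP1 lay between 0.04 and 0.17. The Cajal body genes COIL (the coilin scaffold), WRAP53 (which binds the Cajal body box), SMN1, SMN2 and the GEMIN genes lay between 0.07 and 0.21, where SMN1 and SMN2 are near-identical copies whose counts are uncertain. TERT, the catalytic subunit of telomerase, whose RNA is an H/ACA RNA not analysed here, had 0.08 (adjusted p = 0.72). The 8 maturation and transport genes lay between -0.10 and 0.12, the C/D core genes FBL, NOP56, NOP58 and SNU13 between -0.00 and 0.18, and 11 pseudouridine synthases that act without a guide between -0.04 and 0.22. Of the latter TRUB1 was 0.38 higher in batch 2 (adjusted p = 0.015), under 1.5-fold. The nuclear long RNAs MALAT1 and NEAT1 had -0.39 and -0.42 over both batches (adjusted p = 0.10 and 0.084), and in batch 2 MALAT1 fell by 0.60 (adjusted p = 0.019).

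Between batches 4 of the 40 protein genes passed, where 21.5% of all tested genes did, and their median difference was 0.13. At the adjusted p alone 23 of the 40 passed, against 47.9% of all tested genes. The Cajal body and nucleolar shuttling phosphoprotein NOLC1 fell by 0.76 in batch 1 relative to batch 2 (adjusted p = 1.5e-05) and TCOF1 (treacle, a nucleolar protein of ribosomal RNA transcription) by 0.87 (adjusted p = 3.9e-05). The C/D methyltransferase FBL was 0.75 higher in batch 1 (adjusted p = 1.3e-06) and RPUSD1 0.68 higher (adjusted p = 0.00010). DKC1 had 0.02 (SE 0.08, adjusted p = 0.85), beside the members' median of 2.30.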

How the data were processed

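Bulk RNA sequencing libraries (Qiagen kits, TruSeq RNA library, per the labels) of the general and HHH populations were used, 5 of each in 2 batches. The authors deposited whole-number counts per Ensembl gene without normalization, which were used here. They also deposited log2 values, a score scaled and corrected for batch before deposit, which served as an alternative only. The submitters' notes name GRCh37, CASAVA 1.8.2, R 3.2.2 and limma 3.26.9, without roles. The aligner, the counting tool and whether it used strand are not given in the sources used here. Identifiers were matched to GENCODE 44 (GRCh38) by Ensembl ID, where 88.5% of 55841 had a match, and sequences came from its transcripts by the same ID.

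Genes were kept by filterByExpr of edgeR 4.0.16 (minimum count 10, population as group), scaled by TMM and tested with its quasi-likelihood F test in R 4.3.3, as a two-sided test. Benjamini-Hochberg adjusted values cover the 23552 genes that were tested. All adjusted p-values are from this test unless another is named. Calls needed a fold over 1.5 beside an adjusted p under 0.05, except that the difference between batches in the change needed the adjusted p alone. The fit over both batches had batch as an additive term. Changes within a batch came from a fit with a mean per batch and population, whose spread was shared by all 10 libraries. The standard error is the size of the log2 fold change divided by the square root of F. The fit was also run on simulated data in which all genes had the same spread. That run does not test the spread of the members, and no result here rests on it. Libraries held 47242595 to 78503395 counts, and 1 count is 0.0153 to 0.0229 CPM.

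In batch 1 replicate 2, and in batch 2 replicates 1 to 3, occur in both populations. The deviations of paired libraries from their group means correlated at 0.10 in batch 1 and at 0.23, 0.14 and 0.12 in batch 2. In batch 2 each was over 0.1, so the numbers may pair the libraries there. With 2 libraries a group the batch 1 value cannot show pairing, as general replicate 1 and HHH replicate 3 also correlated at 0.10. The main fits, over both batches and within each, did not use the pairing. It entered only as an alternative, through the replicate block.

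The members and lists were chosen with earlier results of these data known. The genes named were members that passed in a comparison, the 10 most abundant, the 3 highest and the 3 lowest by fold change, the 3 rows on either side of the limit, the hosts of these, and the list genes. Further members with the highest or lowest batch differences, those sharing a host, those called by an alternative, and some hosts were named after their values were seen. Alternatives were other scalings and filters, DESeq2 1.42.0, limma 3.58.1 with voom, the replicate block, no batch term, single batches, other limits and each library left out.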

Additional observations from a re-analysis of the deposited data

How the results depend on the processing

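Over both batches 1 member was called. None was called under library size only, at least 1 CPM in at least 5 libraries, no batch term, the deposited log2 values, an adjusted p under 0.01, a fold over 2, members at a mean of at least 5 CPM, or members at a mean of at least 1 CPM in batch 2, which was chosen after seeing the data. There were 2 with no filter and with members at a mean of at least 0.2 CPM, and 7 with the replicate block. Of all genes 1114 of 44356 were called with no filter and 819 of 23552 with the replicate block. Stricter limits leave fewer members, and SNORA1 lies below several of them. The other causes were not tested. Leaving out each library gave 0 to 6 calls over both batches, 0 to 20 in batch 1, 0 to 3 in batch 2, 0 to 1 for the difference between batches and 78 to 81 for batch 1 against batch 2. For the 60 hosts it gave 0 to 1, and the replicate block gave 1 (CHD3, lower in HHH). With no filter there were 7 in batch 1, 2 in batch 2 and 4 for the difference between batches, where 1106, 1240 and 1173 of 44356 genes were called. DESeq2 gave 1, 2 and 1, where 592, 868 and 838 of 23552 genes were called. The main fit called 422, 914 and 183 of 23552 genes. Batch 2 fitted alone gave 2 members, where 1178 of 24025 genes were called, and 2 with the replicate block, where 1329 were. For batch 1 against batch 2 the count was 80 in the main fit and 42 where members had a mean of at least 5 CPM, all higher in batch 1. That limit leaves a smaller set, as the median member had a mean of 5.60 raw CPM, so the 2 counts cannot be set side by side. The count was 76 with library size only, which moved the median of all genes by -0.34.

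Leaving out each library moved the median log2 fold change of the members from -0.03 to 0.37 over both batches, from -0.32 to 0.61 in batch 1 and from 0.10 to 0.30 in batch 2. With other scalings it was 0.18 to 0.21 over both batches. In the deposited log2 values it was 0.00, where the median of all genes was -0.12. Of 19 named members 13 changed sign under some alternative, and none was called in opposite directions. Beside the 6 further members and CHD3, the replicate block changed no call among the members, hosts and pathway genes over both batches. Low counts in batch 2 limit members near 1 CPM, whose intervals often reach past 1.5-fold.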
